A study of Mus musculus with 17 samples.

Results

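The collagen genes of mice were followed through male germ cell sorting in the presence and absence of *Nat10*. The members were all rows of the deposited gene table whose symbol has the form of a collagen chain (Col, a type number, a, a chain number), which gave 43 genes of the 23282 listed. They were grouped by chain type into 11 fibrillar chains, 6 type IV chains, 6 type VI chains, 2 multiplexins, 9 FACIT and related chains (fibril-associated collagens with interrupted triple helices), 4 transmembrane chains and 5 others. The chains *Col21a1* and *Col26a1* have no row in the table and were not analysed here. RNA came from spermatogonia (SPG), from spermatocytes before leptotene (PreL) and from those in leptotene or zygotene (LZ) of C57BL/6J mice, and each stage was taken from wild-type (WT) animals and from *Nat10*-SKO animals. In SKO animals *Stra8*-Cre, which is active in germ cells, removes exons 4 and 5 of the floxed *Nat10* gene. The study writes their genotype as *Nat10* fl/- with *Stra8*-Cre, which is a floxed allele beside a null allele. Neither the age of the animals nor whether the WT animals carried the floxed allele or the Cre is given by the labels. The 17 libraries comprised 3 per genotype in SPG and in PreL, and 2 WT beside 3 SKO libraries in LZ.

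Collagens are secreted proteins whose chains wind into triple helices, and they form the main fibers and sheets of the extracellular matrix. Types I and III build the fibers of the interstitial space, and type IV forms the network of basement membranes. In the testis these proteins surround the seminiferous tubules and the vessels, and they are made largely by peritubular myoid cells, interstitial fibroblasts, endothelial cells and Sertoli cells rather than by germ cells. The testes were opened with collagenase and trypsin before sorting on Hoechst and propidium iodide fluorescence, so a library can hold RNA of somatic cells that passed the gate. In bulk libraries fewer cells of a type and less RNA per cell cannot be told apart.

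The recovered reads per library ranged from 5812380 in SKO LZ replicate 1 to 13820953 in WT LZ replicate 2. Levels are given as recovered reads scaled to a library total of 1000000 (RPM), where 1 read is worth between 0.0724 and 0.172 RPM. The targeted gene *Nat10* stood between 23.1 and 37.2 RPM in the WT libraries and between 6.83 and 22.6 RPM in the SKO libraries, so each SKO library lay below each WT library, where reads on the remaining exons also count. Germ cell identity was visible in all 17 libraries, with 717 to 7413 reads of *Stra8*, a gene of meiotic entry, and 8216 to 43165 reads of *Sycp3*, a component of the synaptonemal complex. Libraries of 1 group differed in collagen and somatic marker reads. SKO PreL replicate 3 had a summed level of 10 Sertoli markers of 305 RPM, against 1536 and 1833 RPM in SKO PreL replicates 1 and 2, and WT LZ replicate 2 had 2404 RPM against 592 RPM in WT LZ replicate 3. WT SPG replicate 2 had 34.8 RPM of collagens and 1.04 RPM of fibroblast markers, where the other WT SPG libraries had 66.5 and 66.9 RPM and 49.9 and 51.8 RPM. SKO LZ replicate 1 had 57.6 RPM of collagens and 17.0 RPM of macrophage markers, where the other SKO LZ libraries had 92.8 and 101 RPM and 42.9 and 44.5 RPM. Where leaving out 1 library ended a call, that library is named beside it, and group sums are given over all libraries unless stated.

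Promoter windows of the members with opposite behaviour are shown first, because the neighbouring genes *Col4a1* and *Col4a2* are transcribed away from a common promoter while the other windows belong to genes that rose (*Col1a2*, *Col3a1*) or fell (*Col16a1*, *Col20a1*) in SKO libraries. Each window holds 250 bases before and 50 bases after a RefSeq start site in GRCm38.p6, and 35 of the 43 members have at least 1 window in this table. The windows are written 5′ to 3′ on the strand of the gene, and capitals mark matches on either strand to 3 short motifs, those on the other strand appearing as the reverse complement. The motifs searched were TATAAA, known as the TATA box, the CCAAT box, spelled as its name, and the GC box, spelled GGGCGG. The motifs do not overlap each other in the windows printed. The windows of *Col1a2* (chr6:4505368-4505667, plus strand), *Col3a1* (chr1:45311288-45311587, plus strand), *Col4a1* (chr8:11312777-11313076, minus strand), *Col4a2* (chr8:11312555-11312854, plus strand), *Col16a1* (chr4:130047590-130047889, plus strand) and *Col20a1* (chr2:180986285-180986584, plus strand) read as follows.
Col1a2: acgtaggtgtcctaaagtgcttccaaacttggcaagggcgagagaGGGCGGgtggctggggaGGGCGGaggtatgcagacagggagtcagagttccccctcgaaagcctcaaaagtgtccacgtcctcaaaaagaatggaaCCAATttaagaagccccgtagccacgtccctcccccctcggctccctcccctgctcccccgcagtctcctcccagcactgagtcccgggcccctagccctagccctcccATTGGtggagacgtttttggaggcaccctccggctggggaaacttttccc
Col3a1: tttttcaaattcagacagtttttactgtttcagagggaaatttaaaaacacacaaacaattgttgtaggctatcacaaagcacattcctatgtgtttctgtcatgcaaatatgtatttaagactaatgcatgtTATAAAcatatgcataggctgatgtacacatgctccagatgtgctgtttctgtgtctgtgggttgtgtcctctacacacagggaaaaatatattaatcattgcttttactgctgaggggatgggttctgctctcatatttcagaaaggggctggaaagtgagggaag
Col4a1: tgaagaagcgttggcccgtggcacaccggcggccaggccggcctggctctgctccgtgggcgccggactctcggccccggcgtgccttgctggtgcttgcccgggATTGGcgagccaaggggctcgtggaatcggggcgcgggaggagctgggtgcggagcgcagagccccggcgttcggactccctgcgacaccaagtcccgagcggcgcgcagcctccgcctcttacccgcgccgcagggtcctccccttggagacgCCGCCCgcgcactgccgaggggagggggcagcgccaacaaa
Col4a2: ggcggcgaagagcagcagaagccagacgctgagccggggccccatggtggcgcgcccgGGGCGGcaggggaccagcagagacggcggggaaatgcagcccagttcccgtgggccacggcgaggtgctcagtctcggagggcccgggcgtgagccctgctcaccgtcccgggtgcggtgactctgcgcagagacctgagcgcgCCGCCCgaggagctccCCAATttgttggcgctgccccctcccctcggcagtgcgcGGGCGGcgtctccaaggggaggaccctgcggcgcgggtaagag
Col16a1: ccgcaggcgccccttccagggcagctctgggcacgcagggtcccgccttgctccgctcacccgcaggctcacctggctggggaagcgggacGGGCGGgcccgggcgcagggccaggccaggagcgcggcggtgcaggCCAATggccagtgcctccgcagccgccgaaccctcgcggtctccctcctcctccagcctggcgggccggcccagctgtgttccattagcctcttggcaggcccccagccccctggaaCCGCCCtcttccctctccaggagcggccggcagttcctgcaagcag
Col20a1: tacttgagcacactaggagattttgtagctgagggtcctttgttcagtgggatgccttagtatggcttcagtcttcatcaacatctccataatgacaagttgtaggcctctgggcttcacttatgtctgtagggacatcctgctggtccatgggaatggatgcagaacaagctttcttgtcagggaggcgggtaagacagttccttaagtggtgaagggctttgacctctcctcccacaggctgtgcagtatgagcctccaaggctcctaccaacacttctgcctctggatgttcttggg

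The annotated start sites of *Col4a1* and *Col4a2* lie 21 bases apart on opposite strands, and the printed windows of the pair therefore share bases. A GC box was found in 22 of the 35 members with a window (62.9%), against 35.7% of all 32851 windows in the table. A member was counted if any of its windows matched, and the 35 members have 38 windows. The shares of members and of windows are therefore not of the same unit. A CCAAT box was found in 13 members (37.1%), against 37.4% of all windows. TATAAA was found in 5 members (14.3%), against 13.6% of all windows, and *Col3a1* holds it at -117 from its start site. The windows of *Col4a1*, *Col4a2* and *Col16a1* consist of 74.0%, 73.7% and 74.3% G and C, the window of *Col1a2* of 61.0% and that of *Col3a1* of 37.7%, where the median window of the table has 52.7%. A match describes letters in the window and not a bound site.

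**Figure D1:**
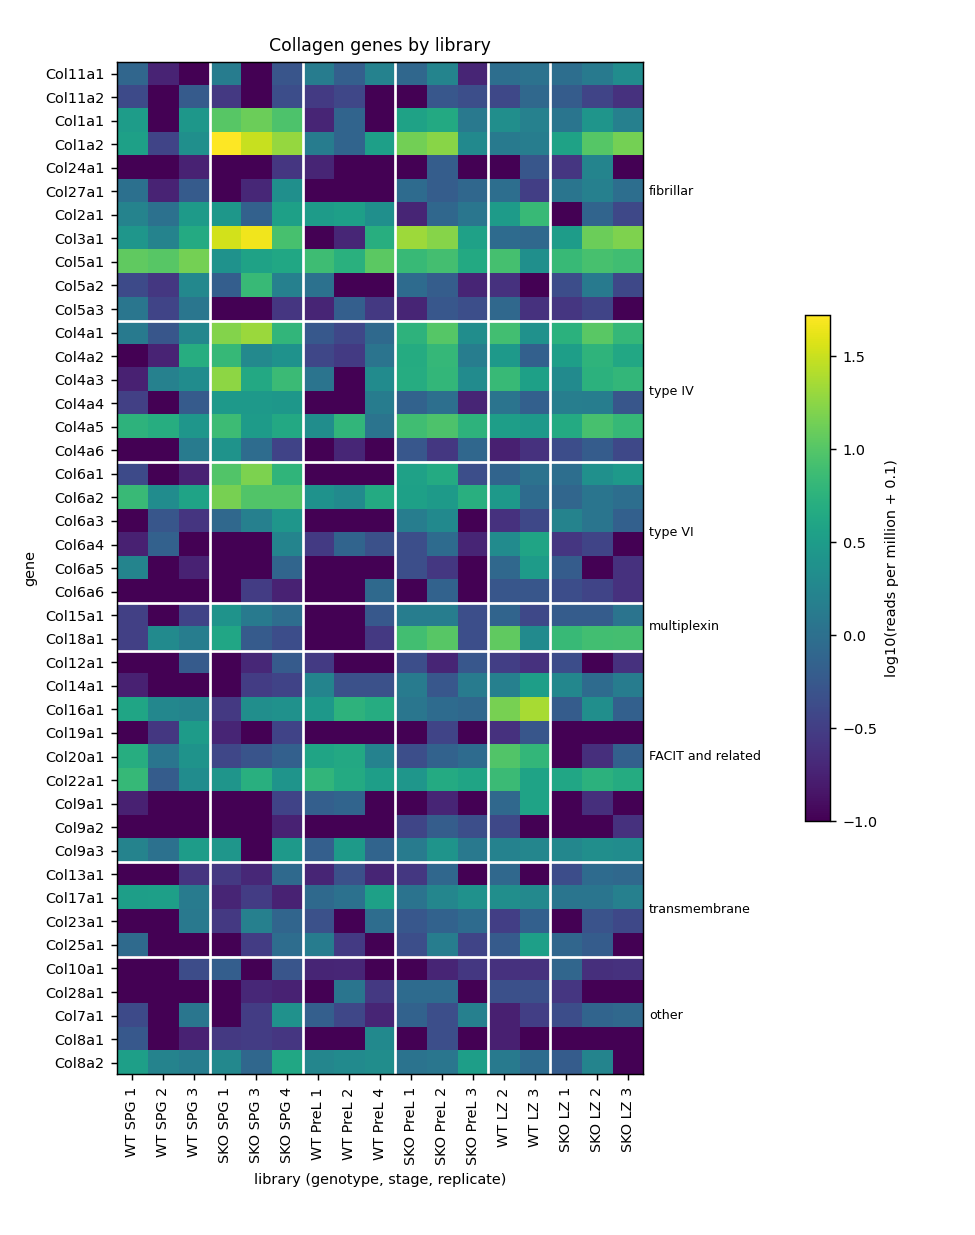
Level of each of the 43 collagen genes (rows, grouped by chain type) in each of the 17 libraries (columns, grouped by genotype and stage), as log10(RPM + 0.1). *Col1a2* and *Col3a1* are brightest in SKO SPG, where *Col1a2* reached 52.6 RPM, and *Col16a1* is brightest in WT LZ, where it reached 23.0 RPM.

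Collagen RNA was a small share of every library. The 43 genes summed to 66.9, 34.8 and 66.5 RPM in WT SPG replicates 1, 2 and 3, and to 197, 173 and 112 RPM in SKO SPG replicates 1, 3 and 4. In PreL the sums were 41.3, 44.0 and 54.3 RPM in WT replicates 1, 2 and 4, and 101, 123 and 48.4 RPM in SKO replicates 1, 2 and 3. In LZ they were 99.4 and 85.8 RPM in WT replicates 2 and 3, and 57.6, 101 and 92.8 RPM in SKO replicates 1, 2 and 3. The genotypes did not overlap in SPG, where the mean rose from 56.0 ± 18.4 RPM in WT to 161 ± 43.8 RPM in SKO (SD, n = 3 each, ratio 2.87). They overlapped in PreL, through SKO replicate 3, at means of 46.5 ± 6.86 and 90.7 ± 38.3 RPM (n = 3 each, ratio 1.95, 2.41 without SKO replicate 3, and 3.13 with the values as deposited). They overlapped in LZ, at 92.6 ± 9.66 RPM in WT (n = 2) and 83.9 ± 23.2 RPM in SKO (n = 3, ratio 0.906). The direction in LZ was not stable, at a ratio of 1.08 with the values as deposited, 1.16 after median-of-ratios rescaling, 1.05 when SKO replicate 1 was dropped, and 0.979 or 0.844 when WT replicate 2 or WT replicate 3 was dropped. No p is given for these sums, since the members were chosen with earlier results of these data known.

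The composition of the collagen reads also differed between the groups. Fibrillar chains held 41.0% of the collagen reads in WT SPG and 52.2% in SKO SPG, 35.0% and 41.2% in PreL, and 17.9% and 40.1% in LZ. The FACIT and related chains held 20.4% in WT SPG and 4.86% in SKO SPG, 31.9% and 9.37% in PreL, and 41.9% and 11.2% in LZ. A share also moves when the other chains change. Per kilobase of transcript, the scale on which genes can be compared, the highest level in WT SPG was that of *Col5a1*, at 1.41 ± 0.231 RPM per kilobase, followed by *Col6a2* at 0.893 ± 0.528 (n = 3). *Col5a1* also led in WT PreL, at 0.931 ± 0.325, and *Col16a1* followed at 0.841 ± 0.292, a difference smaller than the SD of either. WT LZ was led by *Col16a1* at 3.60 ± 1.17 and *Col20a1* at 1.57 ± 0.470 (n = 2). In SKO libraries the same 2 interstitial chains headed each stage. *Col1a2* stood at 6.42 ± 3.15 and *Col3a1* at 5.28 ± 3.42 in SKO SPG, *Col3a1* at 2.47 ± 1.63 and *Col1a2* at 2.04 ± 1.5 in SKO PreL, and *Col3a1* at 1.88 ± 1.18 and *Col1a2* at 1.73 ± 0.992 in SKO LZ (n = 3 each), and in no stage did the difference between them exceed the SD of either.

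**Figure D2:**
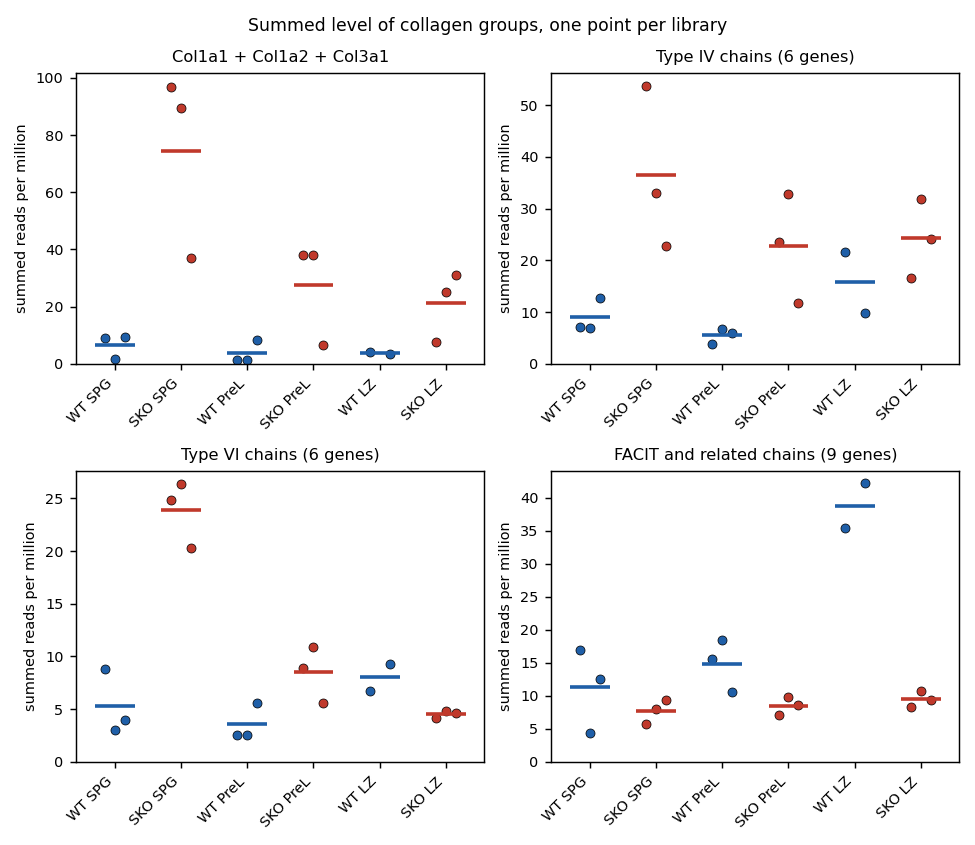
Summed RPM of 4 collagen groups in the 17 libraries (blue, WT, and red, SKO). Each point is a library and each bar the mean of its group. *Col1a1*, *Col1a2* and *Col3a1* together lie between 37.0 and 96.8 RPM in SKO SPG and at or below 9.31 RPM in WT SPG, while the FACIT and related chains lie at 35.5 and 42.1 RPM in WT LZ and at or below 10.8 RPM in SKO LZ.

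The genotypes were compared stage by stage with limma on log2(rescaled value + 10), where the rescaled values are the deposited values divided by median-of-ratios factors. The study's thresholds were kept, so that a call needed a Benjamini-Hochberg adjusted p under 0.05 over all genes tested and a log2 fold change beyond 1 in either direction. For genes with low values the added 10 makes a fold change look smaller than it was. In these stage fits it weighed more in SPG than in LZ. The WT mean of *Col5a1* was 154 rescaled at 11.9 RPM in SPG and 223 rescaled at 5.15 RPM in LZ. Of the 43 collagens, 27 had a mean of at least 10 reads in at least 1 comparison and were tested there, and 16 were tested in none. In SPG, 7 of the 21 tested members were called higher in SKO (3.95% of all genes tested were) and 2 lower (2.06% of all genes). In PreL, 6 of 19 were called higher (5.32% of all genes) and 3 lower (5.83%). In LZ, 4 of 23 were called higher (13.4% of all genes) and 5 lower (25.8%), so the share of lower collagens was close to that of all genes. The median log2 fold change of the tested collagens was 1.02 in SPG, 0.33 in PreL and 0.18 in LZ, against 0.001, 0.04 and -0.13 over all genes tested. Since a low gene enters the test through the group where it is high, these counts and medians describe the tested members and not all collagens. The p of a single gene that is scarce in 1 group carries the same limit. Called members with a mean under 10 reads in 1 genotype passed the filter only through the other genotype. These were *Col4a4*, *Col6a1* and *Col17a1* in SPG. In PreL they were *Col1a1*, *Col2a1*, *Col4a1*, *Col4a2*, *Col6a1*, *Col16a1*, *Col18a1* and *Col20a1*, and in LZ *Col2a1*, *Col6a4*, *Col9a1*, *Col16a1* and *Col20a1*. In all, 17 members were called in at least 1 stage. Without WT SPG replicate 1 or 3 no member was called lower in SPG, without SKO SPG replicate 4 the higher calls in SPG were 4, and without WT LZ replicate 3 the LZ calls were 0 higher and 2 lower.

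Among the genotype comparisons, the split of calls moved most with the scale in PreL. With the ERCC-calibrated values taken as deposited, the median of all genes was -0.25 in SPG, 0.73 in PreL and -0.25 in LZ, and the PreL calls became 9 higher and 1 lower, against 6 higher and 3 lower after rescaling. No called collagen changed direction under this scaling or under TMM scaling. The PreL calls also rested on single libraries, since no member was higher once SKO replicate 1 or SKO replicate 2 was left out. The higher calls numbered 1 when WT replicate 1 was dropped, 2 when WT replicate 2 was dropped and 7 when SKO replicate 3 was dropped.

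**Figure D3:**
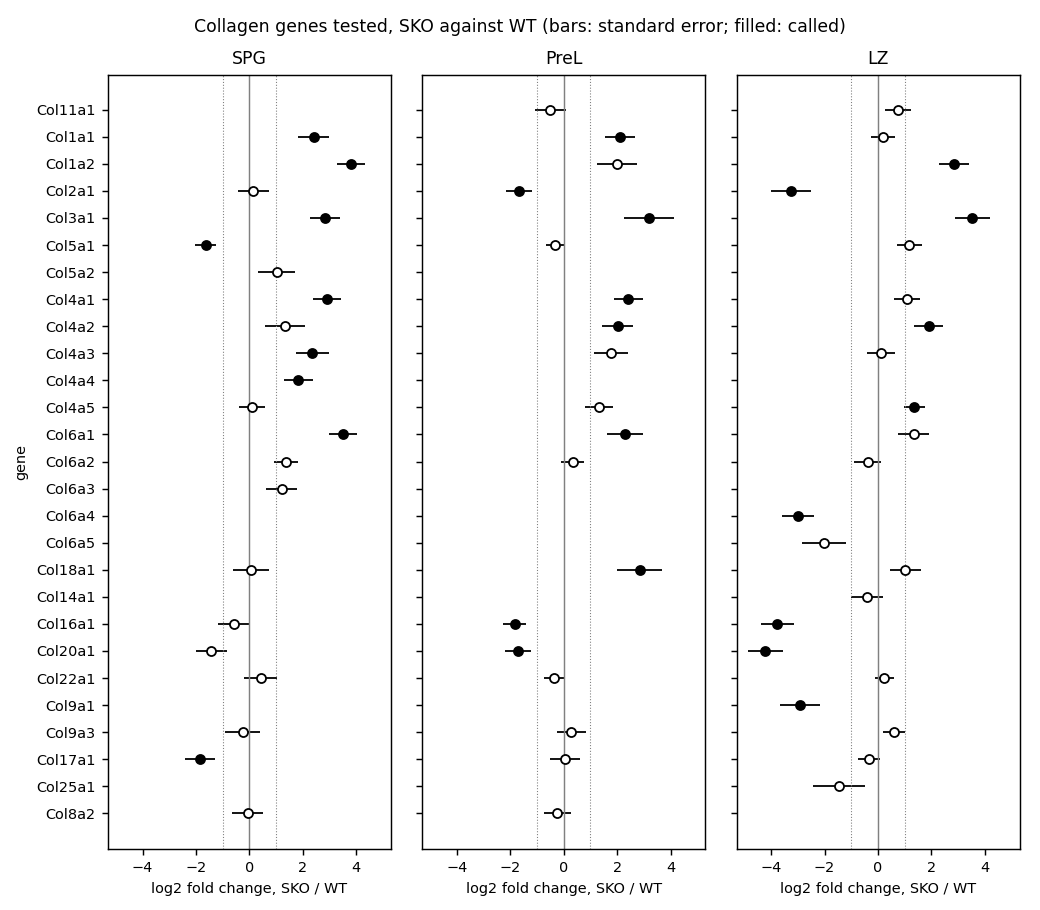
Log2 fold change of SKO against WT (x axis) for the 27 collagens tested in at least 1 stage (y axis), in SPG, PreL and LZ. Points are limma estimates, bars are standard errors, filled points are called and dotted lines mark a log2 fold change of 1 in either direction. Type I, III, IV and VI chains lie to the right where called, up to 3.79 for *Col1a2* in SPG, except *Col6a4* at -2.99 in LZ, and *Col16a1* and *Col20a1* lie to the left in PreL and LZ.

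The chains of type I and type III collagen, the main fibers of loose connective tissue, rose together in SKO SPG. Their summed level was 6.75 ± 4.28 RPM in WT SPG and 74.5 ± 32.7 RPM in SKO SPG (SD, n = 3 each). It was 3.71 ± 3.98 and 27.6 ± 18.2 RPM in PreL (n = 3 each), and 3.82 ± 0.433 and 21.4 ± 12.2 RPM in LZ (n = 2 and 3). Of the 11 fibrillar genes, 6 were tested in SPG, with 3 higher, 1 lower and 2 not called. In PreL 6 were tested, with 2 higher, 1 lower and 3 not called, and in LZ 6 were tested, with 2 higher, 1 lower and 3 not called. Over all genes tested, 3.95%, 5.32% and 13.4% were higher and 2.06%, 5.83% and 25.8% lower in SPG, PreL and LZ.

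*Col1a2* (chromosome 6, 4504814 to 4541544) encodes the second chain of type I collagen. It stood at 3.45, 0.259 and 2.16 RPM in WT SPG replicates 1, 2 and 3, and at 52.6, 31.1 and 19.4 RPM in SKO SPG replicates 1, 3 and 4. PreL levels were 1.31, 0.662 and 3.36 RPM in WT replicates 1, 2 and 4, and 13.6, 17.2 and 1.86 RPM in SKO replicates 1, 2 and 3. LZ levels were 1.23 and 1.32 RPM in WT replicates 2 and 3, and 3.61, 9.99 and 14.1 RPM in SKO replicates 1, 2 and 3. The genotypes were separate in SPG and in LZ and overlapped in PreL, where SKO replicate 3 lay inside the WT range. The SPG difference of *Col1a2* was called, at 3.79 on the log2 scale (limma, standard error 0.53, adjusted p = 0.000752), and all 16 alternatives kept this call. It rose in LZ by 2.83 (standard error 0.57, adjusted p = 0.00473), and lost this call without WT replicate 2 (adjusted p = 0.0836) or WT replicate 3 (adjusted p = 0.0739). In PreL the log2 fold change was 1.99 (standard error 0.74) and was not called (adjusted p = 0.091).

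*Col3a1* (chromosome 1, 45311538 to 45349706) encodes the single chain of type III collagen, which accompanies type I in the interstitium. SPG values were 2.61, 1.55 and 4.49 RPM in WT replicates 1, 2 and 3, and 34.0, 45.6 and 8.48 RPM in SKO replicates 1, 3 and 4. PreL values were 0, 0.095 and 4.94 RPM in WT replicates 1, 2 and 4, and 21.0, 16.6 and 3.55 RPM in SKO replicates 1, 2 and 3. LZ values were 0.796 and 0.732 RPM in WT replicates 2 and 3, and 3.10, 12.7 and 15.6 RPM in SKO replicates 1, 2 and 3. WT PreL replicate 4 lay above SKO PreL replicate 3, and the genotypes were separate in SPG and LZ. *Col3a1* was called higher in every stage, by 2.82 in SPG (standard error 0.56, adjusted p = 0.00614 from limma), 3.19 in PreL (standard error 0.93, adjusted p = 0.0429) and 3.53 in LZ (standard error 0.65, adjusted p = 0.00325). The PreL call was lost with DESeq2 (adjusted p = 0.323), with edgeR (adjusted p = 0.154) and without WT replicate 1, WT replicate 2, SKO replicate 1 or SKO replicate 2 (adjusted p = 0.125, 0.151, 0.151 and 0.124). The LZ call was lost without WT replicate 2 or 3 (adjusted p = 0.074 and 0.0778), and that in SPG when low genes were not filtered (adjusted p = 0.0541).

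*Col1a1* (chromosome 11, 94936224 to 94953042) encodes the major chain of type I collagen. Its SPG levels were 3.07, 0 and 2.66 RPM in WT replicates 1, 2 and 3, against 10.2, 12.9 and 9.15 RPM in SKO replicates 1, 3 and 4. Its PreL levels were 0.093, 0.662 and 0 RPM in WT replicates 1, 2 and 4, against 3.56, 4.35 and 1.16 RPM in SKO replicates 1, 2 and 3. Its LZ levels were 2.1 and 1.46 RPM in WT replicates 2 and 3, against 1.03, 2.50 and 1.44 RPM in SKO replicates 1, 2 and 3. All SKO libraries exceeded all WT libraries in SPG and PreL, and the genotypes overlapped in LZ. In PreL *Col1a1* passed the read filter only through the SKO libraries. The gene rose by 2.40 in SPG (standard error 0.59, adjusted p = 0.0187 from limma) and by 2.12 in PreL (standard error 0.57, adjusted p = 0.0314), and its LZ value was 0.18 (standard error 0.45, adjusted p = 0.757). The SPG call was lost without SKO replicate 3 or 4 (adjusted p = 0.0721 and 0.0532) and with edgeR (adjusted p = 0.129), and the PreL call without WT replicate 1, WT replicate 4, SKO replicate 1 or SKO replicate 2 (adjusted p = 0.0748, 0.0674, 0.157 and 0.134). The type I trimer usually holds more of the *Col1a1* chain than of the *Col1a2* chain. Per kilobase, the ratio of *Col1a1* to *Col1a2* was 0.880 in WT SPG, from 72 and 74 reads, and 0.282 in SKO SPG, from 347 and 1107 reads. It was 0.128 in WT PreL (8 and 57 reads) and 0.250 in SKO PreL (102 and 368 reads), and 1.26 in WT LZ (49 and 35 reads) and 0.162 in SKO LZ (35 and 195 reads).

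Of the remaining fibrillar chains, *Col5a1* and *Col2a1* were called, both lower. *Col5a1* (chromosome 2, 27886425 to 28039514) encodes a chain of type V collagen, which nucleates thin fibrils. It measured 11.3, 10.3 and 14.0 RPM in WT SPG replicates 1, 2 and 3, and 2.31, 3.64 and 4.11 RPM in SKO SPG replicates 1, 3 and 4. In PreL it measured 7.47, 5.3 and 10.7 RPM in WT replicates 1, 2 and 4, and 6.77, 8.08 and 4.35 RPM in SKO replicates 1, 2 and 3. In LZ it measured 8.10 and 2.19 RPM in WT replicates 2 and 3, and 6.71, 8.41 and 7.65 RPM in SKO replicates 1, 2 and 3. Every WT SPG library exceeded every SKO SPG library, whereas the genotypes overlapped in PreL and LZ. *Col5a1* fell in SPG (log2 fold change -1.65, standard error 0.40, adjusted p = 0.0177 from limma), a call lost when WT replicate 1 (adjusted p = 0.0512) or WT replicate 3 (adjusted p = 0.104) was dropped and when low genes were not filtered (adjusted p = 0.0728). The values were -0.32 in PreL (adjusted p = 0.556) and 1.17 in LZ (adjusted p = 0.0673). Its partner *Col5a2*, at means of 0.742 ± 0.872 RPM in WT SPG and 2.89 ± 3.31 RPM in SKO SPG, had a log2 fold change of 1.02 (adjusted p = 0.39).

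*Col2a1* (chromosome 15, 97975602 to 98004695), the type II chain of cartilage, fell in 2 stages. It stood at 2.99, 3.31 and 2.15 RPM in WT PreL replicates 1, 2 and 4 and at 0.089, 0.710 and 1.07 RPM in SKO PreL replicates 1, 2 and 3. In LZ it stood at 3.04 and 6.73 RPM in WT replicates 2 and 3 and at 0, 0.657 and 0.289 RPM in SKO replicates 1, 2 and 3. The genotypes did not overlap in either stage, and in both *Col2a1* passed the read filter only through the WT libraries. Its log2 fold change was -1.68 in PreL (standard error 0.50, adjusted p = 0.0447 from limma) and -3.25 in LZ (standard error 0.76, adjusted p = 0.00905). The PreL call was lost in 11 of 15 alternatives, among them DESeq2 (adjusted p = 0.0615), edgeR (adjusted p = 0.103) and the removal of any 1 library except SKO replicate 3 (adjusted p between 0.0588 and 0.196), and the LZ call was lost without WT replicate 3 (adjusted p = 0.142). *Col11a1* was tested in PreL, at -0.50 (adjusted p = 0.571), and in LZ, at 0.74 (adjusted p = 0.239), and was called in neither. Of the 6 fibrillar chains tested per stage, 5 had a positive log2 fold change in SPG, 3 in PreL and 5 in LZ.

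Markers of fibroblasts and macrophages were higher in SKO libraries beside the interstitial chains in each stage by their mean sum, and myoid markers were so in SPG and PreL but not in LZ. The 8 interstitial fibroblast markers, a list led by *Dcn*, summed to 34.2 ± 28.8 RPM in WT SPG and 426 ± 126 RPM in SKO SPG, to 23.9 ± 11.6 and 116 ± 69.6 RPM in PreL, and to 13.5 ± 0.150 and 70.7 ± 28.8 RPM in LZ. SKO ranges were 304 to 555 RPM in SPG, 36.1 to 165 RPM in PreL and 45.2 to 102 RPM in LZ, where WT ranges were 1.04 to 51.8, 11.7 to 34.8 and 13.4 to 13.6 RPM. Of these markers, 6 of 7 tested were called higher in SPG, 2 of 5 in PreL and 5 of 5 in LZ, where 3.95%, 5.32% and 13.4% of all genes were. *Lum* was at 0 in all WT SPG libraries and *Dpt* at 0 in all LZ libraries. The 9 macrophage markers summed to 12.1 ± 4.71 and 129 ± 44.0 RPM in SPG, to 23.9 ± 8.37 and 68.0 ± 37.3 RPM in PreL and to 13.9 ± 8.84 and 34.8 ± 15.4 RPM in LZ for WT and SKO. Their sums overlapped in PreL (WT up to 31.5, SKO from 25.4 RPM) and in LZ (WT up to 20.1, SKO from 17.0 RPM). Called higher were 7 of 9 tested in SPG, 1 of 9 in PreL and 4 of 5 in LZ, beside the same shares of all genes. The 7 peritubular myoid markers summed to 8.12 ± 4.18 and 71.1 ± 19.1 RPM in SPG, to 12.9 ± 3.36 and 32.3 ± 17.2 RPM in PreL, and to 59.4 ± 47.5 and 26.1 ± 1.92 RPM in LZ. Of the myoid markers, 3 of 5 tested were called higher in SPG (*Acta2*, *Myh11* and *Myl9*), and 1 of 4 was called lower in PreL and in LZ, in both stages the smooth muscle actin *Actg2*. Of all genes, 5.83% were lower in PreL and 25.8% in LZ. SKO PreL replicate 3 was the lowest of its group for collagens (48.4 RPM), fibroblast markers (36.1 RPM), macrophage markers (25.4 RPM) and myoid markers (12.4 RPM). The part of these cells in the collagen differences was not tested.

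**Figure D4:**
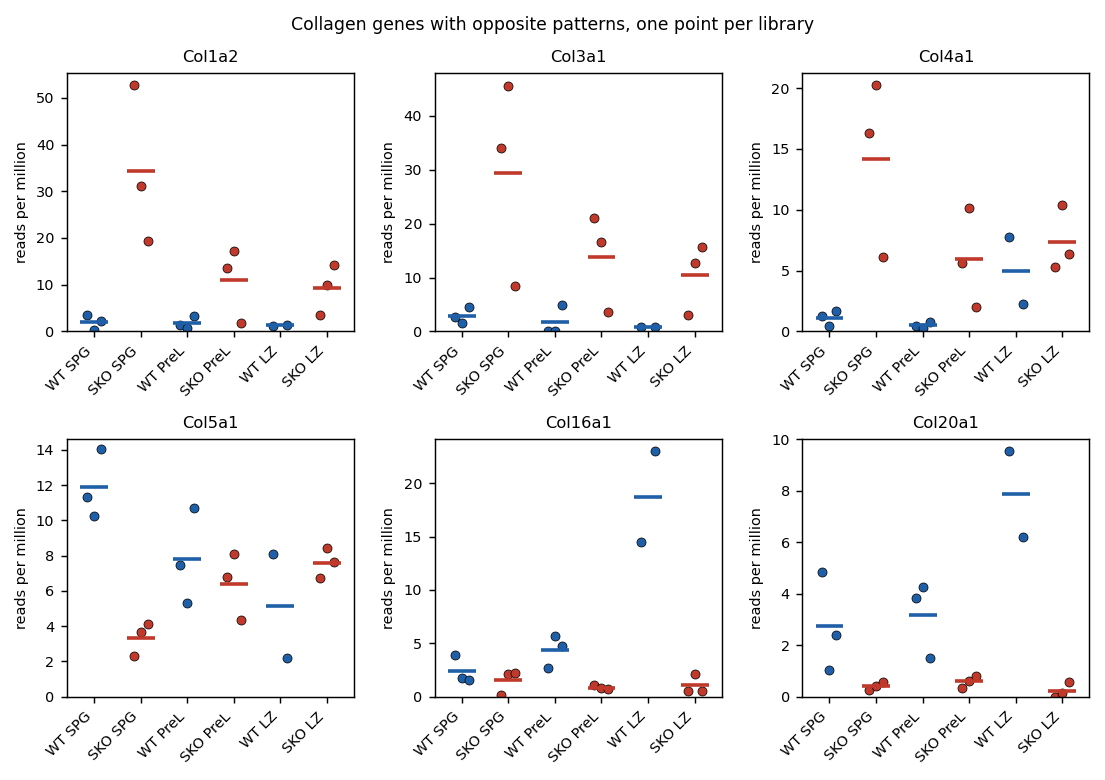
Level in RPM of 6 collagen genes in the 17 libraries (blue, WT, and red, SKO), with a point per library and a bar at the group mean. *Col1a2*, *Col3a1* and *Col4a1* are high in SKO SPG, at means of 34.4, 29.4 and 14.2 RPM, *Col5a1* is highest in WT SPG at 11.9 RPM, and *Col16a1* and *Col20a1* are highest in WT LZ at 18.8 and 7.89 RPM.

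Type IV collagen, the sheet-forming collagen of basement membranes, was higher in SKO libraries wherever a chain was called. The 6 chains summed to 8.97 ± 3.32 RPM in WT SPG and 36.5 ± 15.7 RPM in SKO SPG, to 5.53 ± 1.51 and 22.7 ± 10.5 RPM in PreL (n = 3 each), and to 15.8 ± 8.36 (n = 2) and 24.2 ± 7.62 RPM (n = 3) in LZ. The genotypes were separate in SPG and PreL and overlapped in LZ. In SPG 3 of 5 tested chains were called higher, in PreL 2 of 4 and in LZ 2 of 4, and none lower. The shares of all genes called higher were 3.95%, 5.32% and 13.4%.

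*Col4a1* (chromosome 8, 11198423 to 11312826) encodes the chain present in nearly all basement membranes. It stood at 1.23, 0.432 and 1.66 RPM in WT SPG replicates 1, 2 and 3, and at 16.3, 20.2 and 6.13 RPM in SKO SPG replicates 1, 3 and 4. For PreL the levels were 0.467, 0.284 and 0.746 RPM in WT replicates 1, 2 and 4, and 5.61, 10.1 and 2.04 RPM in SKO replicates 1, 2 and 3. For LZ the levels were 7.74 and 2.27 RPM in WT replicates 2 and 3, and 5.33, 10.4 and 6.35 RPM in SKO replicates 1, 2 and 3. SKO and WT libraries were separate in SPG and PreL, and in LZ the high WT replicate 2 lay within the SKO range. In PreL *Col4a1* passed the read filter only through the SKO libraries. *Col4a1* rose by 2.90 in SPG (standard error 0.53, adjusted p = 0.00406 from limma), a call that all 16 alternatives kept. It rose by 2.41 in PreL (standard error 0.54, adjusted p = 0.0161), which was lost without WT replicate 2, SKO replicate 1 or SKO replicate 2 (adjusted p = 0.0565, 0.0792 and 0.076). In LZ the value was 1.08 (standard error 0.48, adjusted p = 0.0945).

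*Col4a2* (chromosome 8, 11312805 to 11449287), its divergent neighbour, encodes the chain that joins *Col4a1* in the common trimer. SPG levels of *Col4a2* were 0, 0.086 and 4.82 RPM in WT replicates 1, 2 and 3, and 6.57, 1.82 and 2.35 RPM in SKO replicates 1, 3 and 4. PreL levels of *Col4a2* were 0.280, 0.189 and 1.03 RPM in WT replicates 1, 2 and 4, and 4.63, 6.39 and 1.33 RPM in SKO replicates 1, 2 and 3. LZ levels of *Col4a2* were 2.89 and 0.585 RPM in WT replicates 2 and 3, and 3.27, 5.78 and 4.19 RPM in SKO replicates 1, 2 and 3. WT SPG replicate 3 alone accounted for the overlap in SPG, and the genotypes were separate in the other stages. In PreL *Col4a2* passed the read filter only through the SKO libraries. The gene rose by 2.03 in PreL (standard error 0.58, adjusted p = 0.0405 from limma) and by 1.90 in LZ (standard error 0.55, adjusted p = 0.0232), and its SPG value of 1.32 was not called (standard error 0.75, adjusted p = 0.292). The PreL call was lost without WT replicate 1, WT replicate 2, SKO replicate 1 or SKO replicate 2 (adjusted p = 0.0975, 0.117, 0.171 and 0.161) and the LZ call without WT replicate 3, SKO replicate 2 or SKO replicate 3 (adjusted p = 0.092, 0.08 and 0.0587). Both were also lost in 1 fit of all libraries (adjusted p = 0.061 and 0.1). In WT SPG, 58 of the 59 *Col4a2* reads came from replicate 3, so no ratio of the 2 chains is given for that group.

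The other type IV chains form more restricted networks, best known from the kidney and mutated in Alport syndrome. *Col4a3* and *Col4a4* are head-to-head neighbours on chromosome 1. *Col4a3* stood at 0.077, 1.47 and 2.0 RPM in WT SPG replicates 1, 2 and 3 and at 18.2, 4.25 and 7.05 RPM in SKO SPG replicates 1, 3 and 4. *Col4a4* stood at 0.230, 0 and 0.499 RPM in the same WT libraries and at 2.87, 2.83 and 2.69 RPM in the same SKO libraries. Neither gene overlapped between the genotypes in SPG, where they rose by 2.36 (standard error 0.61, adjusted p = 0.0256 from limma) and 1.84 (standard error 0.53, adjusted p = 0.0413). The *Col4a3* call was lost without WT replicate 1, SKO replicate 1 or SKO replicate 4 (adjusted p = 0.0915, 0.104 and 0.0634). It was also lost with edgeR, with a pseudocount of 1 and without the filter. That of *Col4a4* was lost in 11 of 15 alternatives. Among them were edgeR, the values as deposited, a pseudocount of 1 or 50, and the removal of any single library (adjusted p from 0.0878 to 0.105). *Col4a4* passed the read filter in SPG only through the SKO libraries. Of the exon bases of *Col4a3*, 5.65% are shared with the opposite-strand gene *C430014B12Rik*, and reads of the pair could not be told apart without strand.

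*Col4a5* (chromosome X, 141475385 to 141689234), by contrast, was already expressed in all WT libraries. Its SPG levels were 5.67, 4.92 and 2.58 RPM in WT replicates 1, 2 and 3, and 7.31, 3.04 and 4.28 RPM in SKO replicates 1, 3 and 4. Its PreL levels were 2.05, 6.15 and 1.03 RPM in WT replicates 1, 2 and 4, and 7.57, 8.96 and 5.59 RPM in SKO replicates 1, 2 and 3. Its LZ levels were 3.26 and 2.85 RPM in WT replicates 2 and 3, and 4.47, 8.41 and 6.64 RPM in SKO replicates 1, 2 and 3. The genotypes overlapped in SPG and in PreL and were separate in LZ, where *Col4a5* rose by 1.36 (standard error 0.38, adjusted p = 0.0191 from limma). This call was lost without WT replicate 2, WT replicate 3, SKO replicate 2 or SKO replicate 3 (adjusted p = 0.0708, 0.0645, 0.0821 and 0.0709). The values were 0.10 in SPG (adjusted p = 0.926) and 1.33 in PreL (adjusted p = 0.104). *Col4a6*, whose start site lies 1343 bases from that of *Col4a5*, stayed below the read filter in every stage, with a highest library at 26 reads.

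Type VI collagen forms beaded microfilaments between basement membrane and interstitium, usually as a trimer of the *Col6a1*, *Col6a2* and *Col6a3* chains. The 6 chains summed to 5.28 ± 3.10 RPM in WT SPG and 23.9 ± 3.17 RPM in SKO SPG, to 3.56 ± 1.77 and 8.47 ± 2.69 RPM in PreL, and to 8.01 ± 1.81 and 4.54 ± 0.373 RPM in LZ. The order of these sums in LZ was thus opposite to that in the earlier stages. Mean LZ levels of *Col6a4*, *Col6a5* and *Col6a6* were 2.88, 1.86 and 0.437 RPM in WT and 0.145, 0.220 and 0.250 RPM in SKO. *Col6a1* and *Col6a3* had higher means in SKO LZ (1.99 and 1.06 RPM) than in WT LZ (0.801 and 0.219 RPM). That of *Col6a2* was lower (0.869 against 1.81 RPM). *Col6a5* was not called in LZ (log2 fold change -2.02, adjusted p = 0.0744 from limma). In SPG 1 of 3 tested chains was called higher, in PreL 1 of 2, and in LZ 1 of 4 was called lower. The matching shares of all genes were 3.95%, 5.32% and 25.8%.

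*Col6a1* (chromosome 10, 76708792 to 76726168) was nearly absent from WT SPG and PreL. It stood at 0.307, 0 and 0.083 RPM in WT SPG replicates 1, 2 and 3, and at 9.53, 15.2 and 5.88 RPM in SKO SPG replicates 1, 3 and 4. WT PreL libraries had 0 reads of *Col6a1*, which allows up to 3 reads per library, and SKO PreL replicates 1, 2 and 3 had 3.47, 4.53 and 0.355 RPM. In LZ it stood at 0.651 and 0.951 RPM in WT replicates 2 and 3, and at 0.860, 2.23 and 2.89 RPM in SKO replicates 1, 2 and 3. The genotypes were separate in SPG and PreL and overlapped in LZ. *Col6a1* rose by 3.52 in SPG (standard error 0.52, adjusted p = 0.00116 from limma), a call kept by all 16 alternatives. For PreL, setting the SKO mean against a floor of 3 reads in each WT library gave at least 9.15-fold higher, and setting the lowest SKO library against it gave at least 1.29-fold higher (adjusted p = 0.0434 from limma). That call was lost without any WT library or SKO replicate 1 (adjusted p from 0.0775 to 0.205). Without SKO replicate 2 the gene fell below the filter and was not tested. The LZ value was 1.33 (standard error 0.56, adjusted p = 0.0843). In SPG and PreL *Col6a1* passed the read filter only through the SKO libraries.

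*Col6a2* (chromosome 10, 76595762 to 76623630), which lies near *Col6a1*, was present in every WT library, also in those of PreL, where *Col6a1* had 0 reads. SPG values of *Col6a2* were 6.82, 1.99 and 3.66 RPM in WT replicates 1, 2 and 3, and 14.6, 9.61 and 9.48 RPM in SKO replicates 1, 3 and 4. PreL values of *Col6a2* were 2.33, 1.89 and 4.48 RPM in WT replicates 1, 2 and 4, and 3.38, 2.93 and 5.15 RPM in SKO replicates 1, 2 and 3. LZ values of *Col6a2* were 2.82 and 0.805 RPM in WT replicates 2 and 3, and 0.688, 1.05 and 0.866 RPM in SKO replicates 1, 2 and 3. The SKO libraries exceeded the WT libraries in SPG and overlapped with them in the other stages. *Col6a2* was called in no genotype comparison, at 1.37 in SPG (standard error 0.45, adjusted p = 0.0647 from limma), 0.33 in PreL (adjusted p = 0.635) and -0.39 in LZ (adjusted p = 0.539). The ratio of *Col6a1* to *Col6a2* per kilobase was 0.0355 in WT SPG (5 and 156 reads) and 1.03 in SKO SPG (323 and 366 reads). In PreL it was 0 in WT (0 and 93 reads) and 0.827 in SKO (94 and 129 reads), and in LZ it was 0.501 in WT (22 and 50 reads) and 2.61 in SKO (42 and 18 reads).

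*Col6a3* (chromosome 1, 90765923 to 90843971), the largest of the usual chains, had the fewest reads of them as a mean over the 17 libraries, at 7.24. It was found at 0, 0.432 and 0.166 RPM in WT SPG replicates 1, 2 and 3, and at 0.740, 1.42 and 2.60 RPM in SKO SPG replicates 1, 3 and 4. It had 0 reads in the WT PreL libraries, and stood at 1.34, 1.86 and 0 RPM in SKO PreL replicates 1, 2 and 3. LZ levels were 0.145 and 0.293 RPM in WT replicates 2 and 3, and 1.55, 1.05 and 0.577 RPM in SKO replicates 1, 2 and 3. The SKO libraries lay above the WT libraries in SPG and LZ. Its SPG value of 1.21 was not called (standard error 0.58, adjusted p = 0.206 from limma), and it fell below the filter in the other stages. *Col6a4* (chromosome 9, 105989454 to 106096783), an alternative chain, went the other way in LZ, with 1.95 and 3.81 RPM in WT replicates 2 and 3 and 0.172, 0.263 and 0 RPM in SKO replicates 1, 2 and 3. It fell there with an adjusted p of 0.00485 from limma, passing the read filter only through the WT libraries, at a ratio of WT to SKO of 19.5 (95% exact interval 6.43 to 96.6, counting error only) from 79 and 3 reads. Of the WT reads 52 came from replicate 3, without which the gene fell below the filter and was not tested.

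The multiplexins, *Col15a1* and *Col18a1*, are proteoglycan-like collagens of basement membrane zones, and the end of *Col18a1* is released as endostatin. *Col18a1* (chromosome 10, 77052178 to 77166548) varied widely between libraries of the same group. SPG replicates of WT had 0.230, 1.90 and 1.33 RPM, and SKO replicates 1, 3 and 4 had 3.98, 0.506 and 0.336 RPM. In PreL, WT replicates 1, 2 and 4 had 0, 0 and 0.186 RPM, and SKO replicates 1, 2 and 3 had 7.75, 10.3 and 0.355 RPM. In LZ, WT replicates 2 and 3 had 11.3 and 1.90 RPM, and SKO replicates 1, 2 and 3 had 6.71, 7.88 and 7.94 RPM. The high PreL and LZ values were in the libraries with high Sertoli markers, which summed to 1536 and 1833 RPM in SKO PreL replicates 1 and 2, 305 RPM in SKO PreL replicate 3, 2404 and 592 RPM in WT LZ replicates 2 and 3, and 1024 to 1346 RPM in SKO LZ. The part of Sertoli cells was not tested. *Col18a1* was called higher in PreL (log2 fold change 2.85, standard error 0.85, adjusted p = 0.0458 from limma), at a ratio of reads of 98.1 (95% exact interval 26.8 to 816, counting error only) from 207 and 2 reads. It passed the read filter there only through the SKO libraries. Leaving out any 1 library other than SKO replicate 3 ended the call (adjusted p between 0.0814 and 0.189), and the values were 0.07 in SPG (adjusted p = 0.964) and 1.02 in LZ (adjusted p = 0.179).

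*Col15a1* (chromosome 4, 47208161 to 47313167) never reached the read filter. It had 0.230, 0 and 0.249 RPM in WT SPG replicates 1, 2 and 3, and 2.40, 1.21 and 0.839 RPM in SKO SPG replicates 1, 3 and 4. It had 0, 0 and 0.466 RPM in WT PreL replicates 1, 2 and 4, and 1.34, 1.33 and 0.355 RPM in SKO PreL replicates 1, 2 and 3. It had 0.651 and 0.293 RPM in WT LZ replicates 2 and 3, and 0.516, 0.526 and 1.01 RPM in SKO LZ replicates 1, 2 and 3. Only in SPG were the genotypes separate, and with at most 26 reads in a library no difference was tested.

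The FACIT and related chains, which decorate the surface of fibrils, had lower mean sums in SKO than in WT in each stage. Their 9 genes summed to 11.3 ± 6.36 RPM in WT SPG and 7.68 ± 1.90 RPM in SKO SPG, to 14.9 ± 4.0 and 8.5 ± 1.36 RPM in PreL (n = 3 each), and to 38.8 ± 4.73 (n = 2) and 9.47 ± 1.26 RPM (n = 3) in LZ. The sums overlapped in SPG and were separate in PreL and LZ. Most of the difference in each stage lay in *Col16a1* and *Col20a1*. Their means were 2.41 and 2.76 RPM in WT SPG and 1.53 and 0.423 RPM in SKO SPG. They were 4.38 and 3.19 RPM in WT PreL and 0.859 and 0.592 RPM in SKO PreL, and 18.8 and 7.89 against 1.07 and 0.236 RPM in LZ. None of 4 tested genes was called in SPG. Lower were 2 of 4 in PreL (5.83% of all genes were) and 3 of 6 in LZ (25.8% of all genes were), with none higher. In LZ, 2 of the 6 tested genes had a positive log2 fold change. Their median log2 fold change in LZ was -1.67, and -1.24 with *Col9a1* at its bound, against -0.13 over all genes.

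*Col16a1* (chromosome 4, 130047840 to 130099283), a chain found near basement membranes, had the highest level per kilobase in any WT group, and it was chosen for a full account after its values were seen. It stood at 3.91, 1.73 and 1.58 RPM in WT SPG replicates 1, 2 and 3, and at 0.185, 2.12 and 2.27 RPM in SKO SPG replicates 1, 3 and 4. PreL values of *Col16a1* were 2.71, 5.67 and 4.76 RPM in WT replicates 1, 2 and 4, and 1.07, 0.799 and 0.711 RPM in SKO replicates 1, 2 and 3. LZ values of *Col16a1* were 14.5 and 23.0 RPM in WT replicates 2 and 3, and 0.516, 2.1 and 0.577 RPM in SKO replicates 1, 2 and 3. WT libraries exceeded SKO libraries in PreL and LZ and overlapped with them in SPG. In PreL and LZ *Col16a1* passed the read filter only through the WT libraries. The gene fell in PreL (log2 fold change -1.84, standard error 0.43, adjusted p = 0.0194 from limma) and in LZ (log2 fold change -3.77, standard error 0.61, adjusted p = 0.00175), and its SPG value was -0.58 (adjusted p = 0.593). The PreL call was lost without WT replicate 2, SKO replicate 1 or SKO replicate 2 (adjusted p = 0.0646, 0.0673 and 0.0649), and the LZ call without WT replicate 3 (adjusted p = 0.0572).

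*Col20a1* (chromosome 2, 180986535 to 181018363), a FACIT chain of little studied function, was also chosen for a full account after its values were seen, and fell in the same stages. It measured 4.83, 1.04 and 2.41 RPM in WT SPG replicates 1, 2 and 3, and 0.277, 0.405 and 0.588 RPM in SKO SPG replicates 1, 3 and 4. PreL values of *Col20a1* were 3.83, 4.25 and 1.49 RPM in WT replicates 1, 2 and 4, and 0.356, 0.621 and 0.799 RPM in SKO replicates 1, 2 and 3. LZ values of *Col20a1* were 9.55 and 6.22 RPM in WT replicates 2 and 3, and 0, 0.131 and 0.577 RPM in SKO replicates 1, 2 and 3. The genotypes were separate in all 3 stages. The log2 fold change was -4.22 in LZ (standard error 0.66, adjusted p = 0.0015 from limma), which all 14 alternatives kept, -1.71 in PreL (standard error 0.48, adjusted p = 0.0388) and -1.42 in SPG (standard error 0.57), where it was not called (adjusted p = 0.13). In PreL and LZ *Col20a1* passed the read filter only through the WT libraries. The PreL call was lost without WT replicate 1, WT replicate 2, SKO replicate 1 or SKO replicate 2 (adjusted p = 0.099, 0.111, 0.161 and 0.105) and with the values as deposited (adjusted p = 0.0718). *Col9a1*, a chain of cartilage type IX collagen, had 0.724 and 3.73 RPM in WT LZ replicates 2 and 3 and 1 read in all SKO LZ libraries together. It fell in LZ with an adjusted p of 0.0125 from limma, passing the read filter only through the WT libraries, at a ratio of WT to SKO of 45.2 (95% exact interval 7.81 to 1813, counting error only) from 61 and 1 reads. Of the WT reads 51 came from replicate 3, without which the gene fell below the filter and was not tested.

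Reads of spermatids, cells later than those sorted, were also lower in SKO than in WT libraries. The 6 spermatid markers summed to 190 ± 94.9 RPM in WT SPG and 0.844 ± 0.289 RPM in SKO SPG, to 760 ± 191 and 3.88 ± 1.16 RPM in PreL, and to 740 ± 279 and 2.92 ± 0.302 RPM in LZ. Ranges were 92.4 to 282 RPM in WT SPG, 547 to 917 RPM in WT PreL and 543 to 937 RPM in WT LZ, and at most 4.97 RPM in any SKO library. The 6 markers were called lower in SPG and in LZ, and 5 of 6 in PreL, and *Acrv1* was at 0 in SKO SPG and, with *Odf1*, in SKO LZ. Of all genes, 2.06%, 5.83% and 25.8% were lower in SPG, PreL and LZ. Within WT LZ, *Col16a1* was higher in replicate 3, at 23.0 RPM, where the spermatid markers were lower, at 543 RPM, and *Col20a1* was higher in replicate 2, at 9.55 RPM. The part of spermatid RNA in the lower collagens was not tested.

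In the rest of the FACIT group no tested gene was called, and *Col12a1*, *Col19a1* and *Col9a2* were not tested. *Col14a1* was tested only in LZ, at -0.42 (standard error 0.60, adjusted p = 0.586 from limma). *Col22a1*, a chain of tissue junctions, had a mean of 43.5 reads over the 17 libraries and log2 fold changes of 0.42 in SPG, -0.36 in PreL and 0.24 in LZ (adjusted p = 0.73, 0.521 and 0.613 from limma). *Col9a3* was tested in every stage and not called, and 6.07% of its exon bases, the largest share of any collagen, are shared with the opposite-strand gene *Tcfl5*, a transcription factor of spermatocytes. In all, 13 members share exon bases with another annotated gene. Of the transmembrane chains, *Col17a1*, a component of hemidesmosomes, had 42, 39 and 15 reads in WT SPG replicates 1, 2 and 3 and 1, 2 and 1 reads in SKO SPG replicates 1, 3 and 4. It fell in SPG (adjusted p = 0.0497 from limma), passing the read filter only through the WT libraries. The ratio of WT to SKO was 21.3 (95% exact interval 8.07 to 79.9, counting error only). The call was lost without any single library (adjusted p from 0.0795 to 0.153). The log2 fold changes of *Col17a1* were 0.06 in PreL (adjusted p = 0.952) and -0.33 in LZ (adjusted p = 0.536). *Col8a2*, of the other chains, was tested in SPG and PreL, at -0.06 and -0.24, and not called. The 24 members with a mean under 10 reads over the 17 libraries, among them 6 fibrillar, 5 FACIT and 4 type VI chains, could be tested only in a stage where their mean over its libraries was higher, or not at all.

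The stages were also compared within each genotype. Between PreL and SPG in WT, none of 19 tested members was called by limma, where 5.33% of all genes were, although 1 had an unadjusted p under 0.05, and edgeR called 0 and DESeq2 1. From PreL to LZ in WT, 4 of 19 members rose, where 28.9% of all genes were called in either direction, and 14 members were called with the values as deposited. These were *Col18a1* (log2 fold change 3.36, standard error 0.92, adjusted p = 0.00628), *Col4a1* (2.32, standard error 0.62, adjusted p = 0.00529), *Col4a3* (2.16, standard error 0.77, adjusted p = 0.0294) and *Col16a1* (1.99, standard error 0.64, adjusted p = 0.0165). Without WT LZ replicate 2, the library with high Sertoli and myoid markers, *Col18a1* and *Col4a1* lost their calls (adjusted p = 0.119 and 0.0984). Without WT LZ replicate 3, *Col16a1* lost its call (adjusted p = 0.167), as it did without WT PreL replicate 1 (adjusted p = 0.064). *Col4a3* was no longer called without WT PreL replicate 2 or either WT LZ library (adjusted p = 0.135, 0.154 and 0.0708) and with DESeq2 (adjusted p = 0.0697) and edgeR (adjusted p = 0.126). In SKO, *Col17a1* rose from SPG to PreL (log2 fold change 1.79, adjusted p = 0.0376 from limma) and *Col6a1* fell (log2 fold change -2.0, adjusted p = 0.0428), 2 of 19 members where 4.0% of all genes were called, and 4 with the values as deposited. *Col6a2* fell from PreL to LZ in SKO (log2 fold change -1.36, adjusted p = 0.0391), 1 of 19 members where 13.3% of all genes were called, and 5 with the values as deposited. The *Col17a1* call was lost without any SKO SPG or SKO PreL library or SKO LZ replicate 2 or 3 (adjusted p from 0.0522 to 0.118). The *Col6a1* call was lost without SKO SPG replicate 1 or 3, SKO PreL replicate 1 or 3, SKO LZ replicate 2 or 3, WT SPG replicate 3 or WT PreL replicate 1 (adjusted p from 0.0507 to 0.193). The *Col6a2* call was lost without SKO PreL replicate 1 or 3 or any SKO LZ library (adjusted p from 0.0721 to 0.172). Of 25 alternatives each, 10 ended the call of *Col17a1*, 14 that of *Col6a1* and 9 that of *Col6a2*. For *Col6a1* these included edgeR, DESeq2 and the values as deposited.

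Whether the genotype effect itself differed between stages was tested with an interaction term over all 17 libraries. Between SPG and PreL, 0 of 19 members had an adjusted p under 0.05 by limma, against 0.362% of all genes, while 5 had an unadjusted p under 0.05, and edgeR gave 0 and DESeq2 1. The lowest adjusted p was that of *Col17a1*, whose effect was higher in PreL by 2.36 (standard error 0.72, adjusted p = 0.143). Between PreL and LZ, 0 of 19 members passed by limma, against 38.2% of all genes, while 3 had an unadjusted p under 0.05, and edgeR gave 2 and DESeq2 3. The lowest adjusted p was that of *Col5a1*, whose effect was higher in LZ by 1.47 (standard error 0.58, adjusted p = 0.0522), and the next that of *Col20a1*, whose effect was lower in LZ by -1.79 (standard error 0.78, adjusted p = 0.0775). With the values as deposited, limma gave 4 members between SPG and PreL and 3 between PreL and LZ, and with a pseudocount of 50 it gave 3 between PreL and LZ. On the rescaled values with a pseudocount of 10, a collagen called in 1 stage and not in another was not shown to respond differently.

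The machinery around collagen was compared through lists of partner genes. Basement membrane partners, such as laminins and perlecan, had 6 of 13 tested genes higher in SPG, 2 of 15 in PreL and 2 of 13 in LZ, and none lower, where 3.95%, 5.32% and 13.4% of all genes were higher. Among those in SPG were *Sparc*, a collagen-binding matrix protein (log2 fold change 2.92, adjusted p = 0.00225 from limma), and the laminin chains *Lamb1*, at 1.88 (adjusted p = 0.00388), and *Lama2*, at 3.41 (adjusted p = 0.00135). Interstitial matrix partners had 5 of 15 genes higher in SPG, 4 of 12 in PreL and 4 of 11 in LZ, and 2 lower in LZ, where 25.8% of all genes were lower. The fibril-binding proteoglycan *Dcn*, which is also a fibroblast marker, rose in every stage, by 4.78, 2.52 and 3.14 (adjusted p = 0.00502, 0.0332 and 0.00268), and *Bgn*, a relative of it, by 4.42 in SPG (adjusted p = 0.00014) and 2.41 in PreL (adjusted p = 0.0371). Receptors and degradation genes had 3 of 10 higher in SPG, 1 of 12 higher in PreL (5.32% of all genes were) and 1 of 10 lower in LZ (25.8% of all genes were). The lower gene was *Itga1*, a collagen-binding integrin chain, at -1.49 (adjusted p = 0.0241), and the higher gene of PreL was the collagen receptor *Ddr1*, at 2.56 (adjusted p = 0.0201).

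Genes of collagen processing, which fold, hydroxylate and cross-link the chains inside and outside the cell, were tested as a further list. Of 19 tested in SPG, 1 was higher (3.95% of all genes were), and of 18 tested in PreL, 1 was higher (5.32% of all genes were). In both stages this was *P4ha1*, a subunit of prolyl 4-hydroxylase (log2 fold change 1.46 and 1.10, adjusted p = 0.00695 and 0.0214 from limma). In LZ 3 of 20 were higher, where 13.4% of all genes were, and 1 was lower, where 25.8% of all genes were. The higher genes were the lysyl oxidase relative *Loxl2*, at 3.50 (adjusted p = 0.000142), the prolyl 3-hydroxylase relative *Leprel2*, at 3.77 (adjusted p = 5.6e-05), and the collagen chaperone *Serpinh1*, at 2.41 (adjusted p = 0.00535), and the lower gene was *Ppib*, a peptidyl-prolyl isomerase, at -1.04 (adjusted p = 0.0105). *Loxl2* and *Leprel2* averaged 24420 and 6692 reads over the 17 libraries, against 108 reads for *Col1a2*, the most abundant collagen by this mean. The processing list summed to 1356 ± 32.2 RPM in WT LZ (n = 2) and 8350 ± 1224 RPM in SKO LZ (n = 3), where the collagens summed to 92.6 and 83.9 RPM. Such a sum follows its most abundant genes, foremost *Loxl2*, and does not describe the list as a whole. The 20 tested genes had a median log2 fold change of 0.38 in LZ, with 13 positive and 7 negative, against -0.13 over all genes. For WT and SKO the list summed to 2970 ± 234 and 3595 ± 446 RPM in SPG, and to 3802 ± 524 and 3452 ± 275 RPM in PreL.

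**Figure D5:**
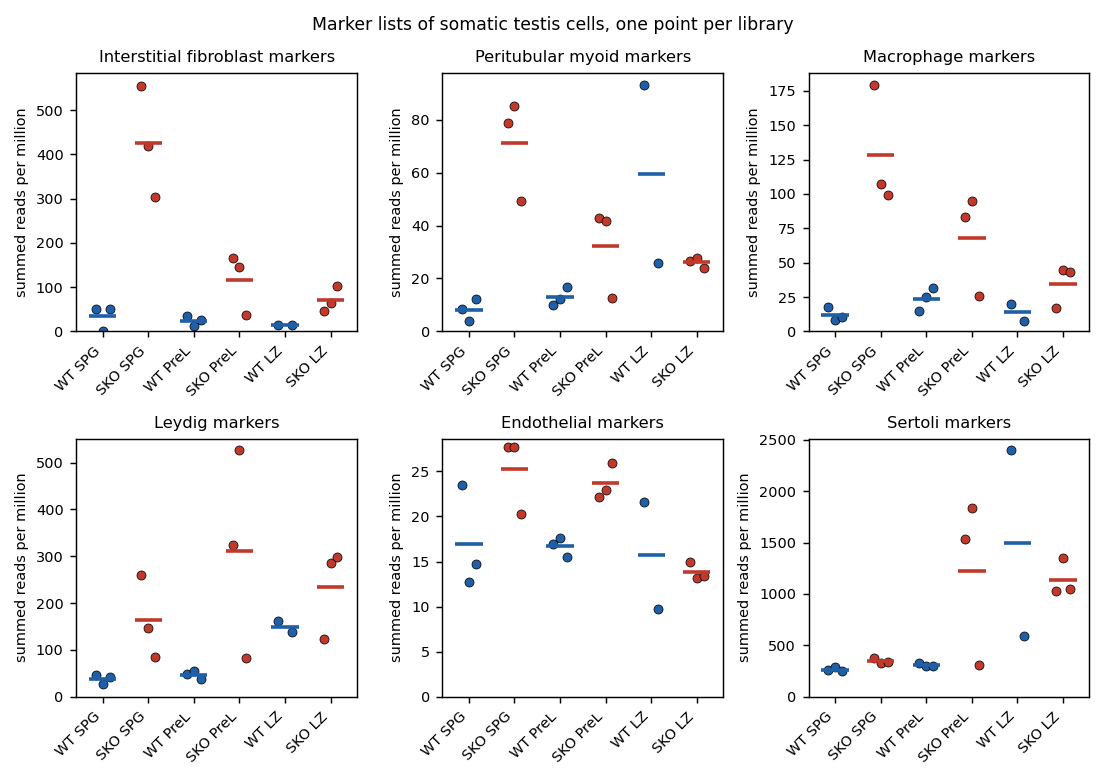
Summed RPM of 6 marker lists of somatic testis cells in the 17 libraries (blue, WT, and red, SKO), with a point per library and a bar at the group mean. Fibroblast markers lie between 304 and 555 RPM in SKO SPG and at or below 51.8 RPM in WT SPG, and Sertoli markers are high in SKO PreL replicates 1 and 2 and in WT LZ replicate 2 (1536, 1833 and 2404 RPM).

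The sums of the remaining somatic lists were as follows. The 8 Leydig markers summed to 38.6 ± 9.82 RPM in WT SPG and 164 ± 88.7 RPM in SKO SPG, to 47.4 ± 7.91 and 310.5 ± 223 RPM in PreL, and to 149.5 ± 16.3 and 235 ± 97.9 RPM in LZ, with 5 of 8 called higher in SPG, 6 of 8 in PreL and 5 of 8 in LZ. The 10 Sertoli markers summed to 264 ± 23.6 and 347 ± 26.5 RPM in SPG, to 307 ± 15.5 and 1225 ± 809.9 RPM in PreL and to 1498 ± 1281 and 1138 ± 180.3 RPM in LZ, with 1 of 9 called higher in SPG, 4 of 10 in PreL and 1 of 10 in LZ. The 9 endothelial markers summed to 17.0 ± 5.70 and 25.3 ± 4.28 RPM in SPG, to 16.69 ± 1.09 and 23.7 ± 2.0 RPM in PreL and to 15.7 ± 8.42 and 13.8 ± 0.983 RPM in LZ, with none of 3, 4 and 3 tested genes called by limma, and *Pecam1* and *Emcn* were at 0 in all WT PreL libraries. Over all genes tested, 3.95% were called higher in SPG, 5.32% in PreL and 13.4% in LZ. Single genes carried some of these sums. *Egfl7* had 274, 136 and 153 reads in WT SPG replicates 1, 2 and 3, where the endothelial list had 148 to 306 reads. *Ctsl* had 2658, 2917 and 2496 reads in these libraries, where the Sertoli list had 2955 to 3371 reads. *Fdx1* had 1434 and 1601 reads in WT LZ replicates 2 and 3, where the Leydig list had 1886 to 2226 reads. The part of each cell type was not tested.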

How the data were processed

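SPG, PreL and LZ cells were sorted by flow cytometry and their RNA was sequenced with Smart-seq2 in 17 libraries, grouped by the genotype and stage of the labels. Per the labels and the methods of the study, reads were mapped (TopHat2 2.1.1, builds mm9 and mm10 are both listed in the submitters' processing notes and the methods name mm10) and counted per gene with HTSeq 0.11.2. The strand setting is not given in the sources used here. The authors then scaled each library by ERCC spike-in and cell input, and the deposited values are this calibrated signal. Each library's values are whole multiples of 1 constant, so reads were recovered (100% of values whole within 0.01) and RPM computed from them. No samples were identical within sampling noise. The study's supplement calls the libraries of a group biological replicates. Whether each came from a separate animal is not stated, so p-values measure the spread between these libraries, which may be technical.

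Values were divided by median-of-ratios factors, filtered at a mean of 10 recovered reads and tested as log2(value + 10) with limma 3.58.1 in R 4.3.3 (trend, Benjamini-Hochberg, two-sided), per stage for genotype and in 1 fit of all libraries for stages and interactions. limma was used because the deposited signal is not a count. edgeR 4.0.16 and DESeq2 1.42.0 on the recovered reads, other scalings, pseudocounts and filters, the replicate number as a block and leaving out each library were alternatives. The code was tested on simulated data. Intervals and floors (3 reads) cover counting error only, since the reads carry no molecular identifiers. Gene positions are from GENCODE (GRCm38) and promoter windows from RefSeq (GRCm38.p6). Genes given in every library are 10 core chains and any further called chain with a mean of at least 50 reads, with others named by call. *Col2a1*, *Col16a1*, *Col20a1* and some values of other called chains were added after their values were seen. The members and all lists were chosen with earlier results of these data known.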

Additional observations from a re-analysis of the deposited data

How the results depend on the processing

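No called gene changed direction under an alternative, whereas the LZ ratio of summed collagens lay on either side of 1. *Col1a2*, *Col4a1* and *Col6a1* in SPG and *Col20a1* in LZ kept their calls in every alternative run. Of these, *Col6a1* passed the read filter only through the SKO libraries and *Col20a1* only through the WT libraries. *Col6a4* and *Col9a1* in LZ could not be tested without WT LZ replicate 3, where they fell below the filter. The same held for *Col6a1* in PreL without SKO PreL replicate 2. The cause of the shifts that follow was not tested. In SPG the 7 higher calls became 4 with a pseudocount of 1, without the filter and with edgeR, and the 2 lower calls became 1 with a pseudocount of 1 or 50, without the filter, and at a mean of 50 reads. In PreL the 6 higher calls became 3 with a pseudocount of 50 and with edgeR and 1 at a mean of 50 reads, and the 3 lower calls became 1 with the values as deposited, with a pseudocount of 50 and without the filter, and 0 at a mean of 50 reads. In LZ the 4 higher calls became 0 and the 5 lower calls 1 at a mean of 50 reads, where fewer genes are tested, and the lower calls became 3 in 1 fit of all libraries. The interaction between SPG and PreL went from 0 members to 4 with the values as deposited and 1 with DESeq2. That between PreL and LZ went from 0 to 3 with the values as deposited, with a pseudocount of 50 and with DESeq2, to 2 without the filter and with edgeR, and to 1 at a mean of 50 reads. The WT calls between PreL and SPG went from 0 to 1 with DESeq2, and those between LZ and PreL from 4 to 14 with the values as deposited and 1 at a mean of 50 reads. The SKO calls between PreL and SPG went from 2 to 4 with the values as deposited or a pseudocount of 50, to 1 with a pseudocount of 1, edgeR or DESeq2, and to 0 without the filter or at a mean of 50 reads. Those between LZ and PreL went from 1 to 5 with the values as deposited and to 0 with a pseudocount of 50, without the filter or at a mean of 50 reads. The ratio of summed collagen levels went from 2.87 to 1.75 in SPG without *Col1a1*, *Col1a2* and *Col3a1*, from 1.95 to 3.13 in PreL with the values as deposited, and from 0.906 to 1.16 in LZ after median-of-ratios rescaling.

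With 1 library left out, the higher and lower calls ranged from 4 to 6 and 0 to 1 in SPG, from 0 to 7 and 0 to 3 in PreL, and from 0 to 5 and 2 to 5 in LZ, where the higher calls were 2 without SKO replicate 2 or 3. The interactions ranged from 0 to 0 and from 0 to 2, the WT stage calls from 0 to 1 and 2 to 6, and the SKO stage calls from 0 to 4 and 0 to 1. The ratios of sums ranged from 2.41 to 3.30 in SPG, 1.60 to 2.41 in PreL and 0.813 to 1.05 in LZ. A WT LZ library left alone was assumed to vary like the SKO libraries. Replicate numbers were not used as a pairing of the samples in the main fits. The deviations of same-numbered libraries from their group means correlated between -0.068 and 0.136. With so few libraries per group this cannot exclude a pairing. With the replicate number as a block, the calls were 5 higher and 1 lower in SPG, 8 and 3 in PreL and 7 and 7 in LZ, and the SKO stage calls 1 and 0.

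Depth limits the low members: 1 read is worth up to 0.172 RPM, 24 collagens averaged under 10 reads, and a count of 0 allows up to 3 reads per library.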
